A study of Mus musculus with 6 samples.

Results

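Transcript levels of 38 genes of purine, pyrimidine and folate synthesis were examined in RNA-seq libraries labelled as mouse kidney tissue. The genes were taken by symbol from the deposited count table, in which all 38 had a row among 25189 symbols. They comprised 5 genes of pyrimidine synthesis de novo, 12 of purine synthesis de novo, 6 of deoxynucleotide supply, 7 of salvage, 3 nucleotide kinases, 3 folate enzymes and 2 nucleotidases. By the labels, the tissue came from wild-type males of the strain C57BL/6 that had undergone ischaemia and reperfusion (I/R). In I/R the blood supply of the kidney is stopped and then restored, and the labels give the time as day 2. One group of 3 libraries was I/R with C9, where C9 stands for chemerin-9, a peptide ligand of the chemerin receptor, and the other group of 3 was I/R alone. By the labels all 6 libraries therefore carry the injury, and no library labelled as uninjured kidney was compared here. Neither the dose and route of the peptide nor the length of ischaemia is known from the labels, which also do not say that libraries came from separate mice. The p-values therefore reflect only how these 6 libraries vary, and that variation could be technical. The columns of the treated group are named IC in the table, and no label uses these letters. Reading IC as I/R with C9 is therefore an inference on which the direction of every comparison rests. The titles call all treated libraries C9 and were followed, although the treatment field of replicates 2 and 3 reads differently. Each library has a batch label of its own, so batch and group cannot be told apart.

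Cells build purine rings stepwise on phosphoribosyl pyrophosphate until inosine monophosphate (IMP) is reached, which is then turned into AMP or GMP. Pyrimidine rings are made before the sugar is attached and lead through UMP to UTP and CTP. Ribonucleotide reductase turns ribonucleotides into deoxynucleotides, one-carbon units carried by folate go into the purine ring and into thymidylate, and salvage enzymes reuse free bases and nucleosides. Dividing cells draw most on synthesis de novo, and in the kidney surviving tubule cells divide after ischaemic injury.

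The libraries held 11217252 to 14004529 counts in I/R with C9 and 13069464 to 16938301 counts in I/R. Markers of the labelled tissue were scarce and do not bear out the label of kidney tissue. Of 20 nephron markers 9 had a row, and 5 of these stayed under 1 CPM (counts scaled to a common library size with TMM factors) in every library. The 9 summed to 38.9 to 46.5 CPM in I/R with C9 and 36.7 to 39.02 CPM in I/R. The 4 leukocyte markers with a row summed to 4.53 to 6.78 CPM and 4.61 to 6.09 CPM, whereas 20 genes of the later cell cycle (G2 and mitosis) summed to 6467 to 6623 CPM and 6840 to 7156 CPM, in the same order of groups. The 6 endothelial markers with a row summed to 11.5 to 13.5 CPM in I/R with C9 and 6.39 to 7.89 CPM in I/R. Most of this sum was Flt1, which averaged 9.25 and 4.81 CPM, and 3 of the 6 stayed under 1 CPM in every library. The 6 fibroblast markers with a row summed to 1178 to 1224 CPM in I/R with C9 and 1192 to 1260 CPM in I/R. Most of this sum was Col1a1, which averaged 800 and 771 CPM, and Col1a2, at 323 and 398 CPM. Pdgfrb averaged 49.2 and 35.1 CPM, Col3a1 21.6 and 15.8 CPM, Pdgfra 6.75 and 8.45 CPM and Dcn 2.53 and 2.13 CPM. Lum and Thy1 had no row. The 3 erythroid markers with a row summed to under 4 CPM in every library. The 18S ribosomal RNA row took 0.261% to 0.306% of counts in I/R with C9 and 0.381% to 0.517% in I/R. I/R replicate 3 held the highest share and lay apart from replicates 1 and 2, where the chi-square of counts over its degrees of freedom was 6.16 and 5.61, against 1.82 between replicates 1 and 2. The part of these differences in the results below was not tested.

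With C9 more of these genes were higher than lower. Atic and Gmps of purine synthesis, Shmt1 of folate metabolism and Rrm2 of deoxynucleotide supply rose by 0.66, 0.60, 0.62 and 0.48 on the log2 scale, and Cad, Paics, Ctps2, Impdh2 and Aprt fell. Of the 38 genes, 37 passed the filter on low counts and Nme2 did not. By edgeR's quasi-likelihood test, 20 of the 37 were higher and 5 lower at a Benjamini-Hochberg adjusted p under 0.05, against a background of 25.6% higher and 26.1% lower among the 14184 genes tested. The share called in either direction was 67.6% of the 37 and 51.7% of all tested genes. These shares, and those by role below, were not matched for level, which affects how easily a gene is called. The median level of the 38 genes was 102 to 106 CPM with C9 and 91.7 to 94.0 CPM in I/R. Over all tested genes it was 25.7 to 25.8 and 25.9 to 26.3 CPM. With a minimum of 50 counts per library in either group, 21 of 35 were higher and 5 lower, and 6698 of 10952 genes were called. The part of level was not tested. The median log2 fold change (I/R with C9 over I/R) was 0.19 over the 37 and -0.0037 over all tested genes. The values of the groups did not overlap for 20 of the 37 genes on the higher side and 6 on the lower side, where 29.3% and 29.2% of all tested genes were so separated, or 58.5% in either direction. Summed over the 38 genes, the level was 5075 to 5125 CPM in I/R with C9 and 4657 to 4684 CPM in I/R. In bulk RNA, more cells of a type and more RNA per cell cannot be told apart. Most changes were small. Tested against a 1.2-fold change with edgeR's glmTreat, 8 of the 37 passed as higher (Atic, Gmps, Shmt1, Rrm2, Dhodh, Nt5c2, Tyms and Adss) and none as lower, where 23.5% of all tested genes passed in either direction. As a share of the 37, the 8 genes that passed did not exceed that background. At an unadjusted p under 0.05 that test gave 11 higher and 1 lower of the 37. No share of all tested genes was computed for that count, nor for each direction of the 1.2-fold test.

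**Figure D1:**
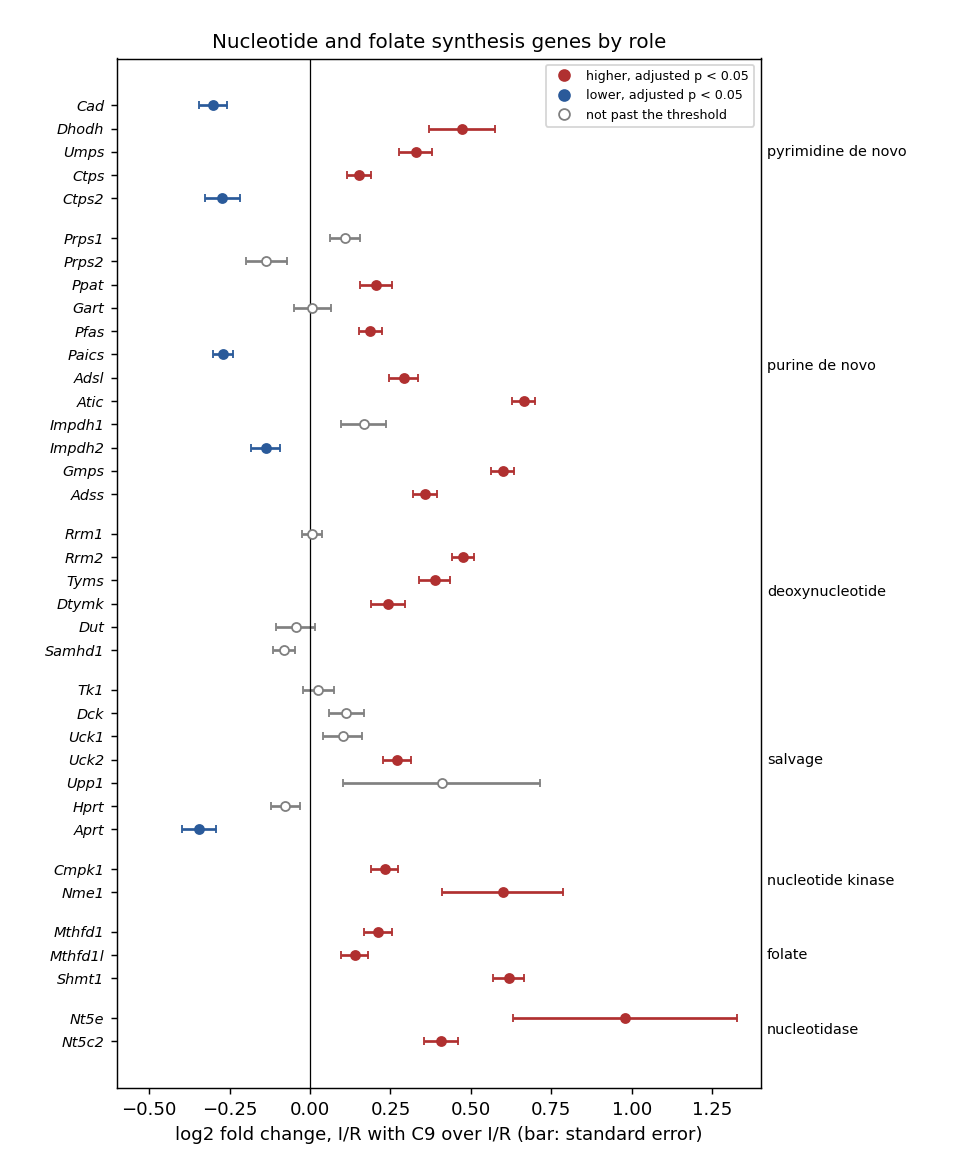
Log2 fold change of each of the 37 tested genes, I/R with C9 over I/R, on the horizontal axis, with bars of 1 standard error, grouped by role. Filled symbols passed an adjusted p under 0.05 (20 higher in red, 5 lower in blue) and open symbols did not.

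The genes differed widely in level. Per kilobase of the longest principal transcript in GENCODE M21, Paics was the most abundant at 154 ± 2.67 CPM per kilobase in I/R with C9 and 186 ± 1.06 in I/R (SD, n = 3 each). Next in I/R came the reductase genes, Rrm1 at 136 ± 1.46 CPM per kilobase in I/R with C9 and 136 ± 3.64 in I/R, and Rrm2 at 142 ± 2.67 and 102 ± 0.466. The salvage genes Aprt and Hprt followed in I/R, at 100.8 ± 3.17 and 98.9 ± 2.53 CPM per kilobase. Aprt differed from Rrm2 and from Hprt by less than its own SD. Dhodh, at 9.99 ± 0.751 CPM per kilobase in I/R with C9 and 7.20 ± 0.671 in I/R, was the lowest of the genes of synthesis de novo. The order depends on the length used, and with all annotated exons counted Rrm1 was the sixth in place of the second. Nme1, Upp1, Nme2 and Nt5e lay under 5 CPM per kilobase in every library.

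**Figure D2:**
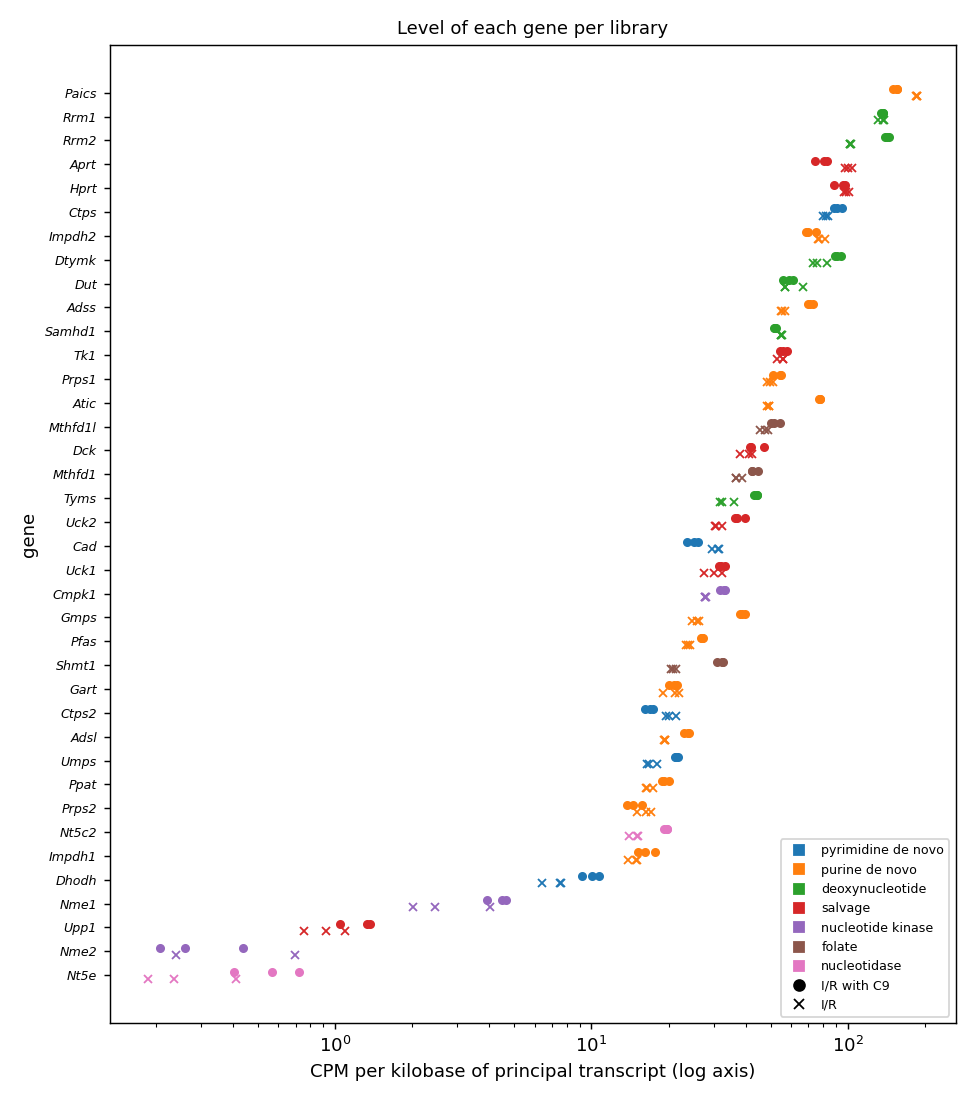
Level of each of the 38 genes per library, in CPM per kilobase of principal transcript on a log axis, sorted by the mean in I/R. Dots are I/R with C9, crosses are I/R and colours give the role. Nme2 had no count in I/R replicate 2, which is not drawn. Paics lies at the top and Nt5e at the bottom, with Atic, Gmps, Shmt1 and Rrm2 clearly shifted between groups.

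The promoter regions of the neighbours Paics and Ppat and of Atic are shown because the pair moved in opposite directions and Atic had the largest rise of the genes of synthesis de novo. Ppat encodes the amidotransferase that commits phosphoribosyl pyrophosphate to purines, and Paics a later bifunctional enzyme of the same pathway. Both genes are known in human and chicken to lie head to head with a shared promoter. Windows from RefSeq (GRCm38.p6) run from 250 bases before to 50 after the annotated start, 5′ to 3′ on the strand of the gene. Capitals mark the E-box CACGTG, which MYC and related factors bind, and the E2F-type letters TTTCCCGC or TTTGGCGC, each searched on both strands with no overlap between motifs in these windows.
Paics, chr5:76951052-76951351, plus strand: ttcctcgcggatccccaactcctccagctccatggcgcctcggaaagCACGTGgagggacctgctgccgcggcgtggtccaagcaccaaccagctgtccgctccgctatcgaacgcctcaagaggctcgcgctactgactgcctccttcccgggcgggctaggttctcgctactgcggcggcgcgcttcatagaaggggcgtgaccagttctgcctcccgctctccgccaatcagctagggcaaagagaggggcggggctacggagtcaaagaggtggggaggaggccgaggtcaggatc
Ppat, chr5:76951529-76951828, minus strand: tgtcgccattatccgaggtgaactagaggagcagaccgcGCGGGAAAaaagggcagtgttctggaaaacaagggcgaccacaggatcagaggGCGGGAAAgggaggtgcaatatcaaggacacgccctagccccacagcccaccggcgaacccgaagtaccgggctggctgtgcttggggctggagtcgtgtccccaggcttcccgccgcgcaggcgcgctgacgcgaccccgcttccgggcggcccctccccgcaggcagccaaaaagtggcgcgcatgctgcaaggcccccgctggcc
Atic, chr1:71556906-71557205, plus strand: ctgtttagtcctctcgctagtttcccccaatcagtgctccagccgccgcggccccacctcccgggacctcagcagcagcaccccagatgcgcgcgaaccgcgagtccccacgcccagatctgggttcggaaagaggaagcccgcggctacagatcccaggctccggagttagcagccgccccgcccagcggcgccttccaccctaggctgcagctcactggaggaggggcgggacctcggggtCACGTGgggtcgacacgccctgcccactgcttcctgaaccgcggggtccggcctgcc
The RefSeq starts of Paics (76951302) and Ppat (76951578) lie 276 bases apart, and the first exons of the transcripts face and overlap each other, by 272 bases in GENCODE M21. Paics and Atic hold 1 E-box each in these windows, and Ppat holds 2 E2F-type matches, both on its other strand. Windows were found for 36 of the 38 genes (51 windows, since some genes have several starts). An E-box was present for 7 of the 36 genes, or 19.4%, against 11.5% of the 9733 tested genes with a window and 7.15% of all 32851 windows. Of these 7 genes, Atic, Tyms, Dtymk, Nme1 and Nt5c2 were higher with C9 and Paics and Impdh2 lower. The E2F-type letters were present for Ppat and Prps2, or 5.56% of the 36, against 3.49% of the tested genes and 1.56% of all windows.

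In the path to IMP, Ppat, Pfas, Adsl and Atic rose, the abundant Paics fell and Gart did not pass the test. Ppat was at 76.1, 79.6 and 74.9 CPM in I/R with C9, against 69.05, 65.2 and 65.7 CPM in I/R. All 3 treated libraries were above all 3 I/R libraries (log2 fold change 0.21 ± 0.05 SE, adjusted p = 0.0028, edgeR). After correction for the trend of fold change with GC content and length this value was 0.12 and its call was lost (adjusted p = 0.052). Such a correction can also remove real differences that follow GC content or length. Paics was at 387, 386 and 375 CPM in I/R with C9, against 463, 461 and 458 CPM in I/R, with no overlap (log2 fold change -0.27 ± 0.031 SE, adjusted p = 4.0e-06, edgeR). The neighbours thus differed in direction, and the ratio of Ppat to Paics counts within a library was 0.197, 0.206 and 0.2000 in I/R with C9, against 0.149, 0.141 and 0.144 in I/R. This pair was chosen after its values were seen, so no test is given. Whether counting used the strand is not stated in any source here, and the overlap makes up 6.15% of the annotated exon bases of Ppat and 8.67% of those of Paics.

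The gene of the last enzyme of the path, Atic, which places the final one-carbon unit and closes the ring, was at 221, 222 and 219 CPM in I/R with C9, against 141, 140 and 138 CPM in I/R. The groups were far apart compared with the spread within each (log2 fold change 0.66 ± 0.035 SE, adjusted p = 1.5e-09, edgeR). Atic lies on chr1:71557150-71579631, Gmps on chr3:63976106-64022579 and Shmt1 on chr11:60788104-60811718 in GRCm38. Adsl, a lyase that acts both before IMP and on the way to AMP, was at 88.2, 85.3 and 89.04 CPM with C9, against 71.6, 71.7 and 71.4 CPM in I/R. Pfas, the glutamine-using enzyme upstream of Paics, was at 171, 174 and 173 CPM with C9, against 152, 154 and 149 CPM in I/R. Both rose with no overlap, by 0.29 and 0.19 on the log2 scale. Gart, a trifunctional enzyme that uses formyl-tetrahydrofolate, averaged 73.5 ± 2.65 CPM with C9 and 73.01 ± 5.55 CPM in I/R (SD, n = 3 each) and did not pass (adjusted p = 0.93, edgeR). The antisense gene Gm15964 overlaps 19.7% of its exon bases.

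Below IMP, Gmps and Adss rose and Impdh2 fell slightly. Gmps, which aminates XMP to GMP, was at 321, 315 and 307 CPM in I/R with C9, against 209, 213 and 201 CPM in I/R (log2 fold change 0.60 ± 0.037 SE, adjusted p = 6.3e-09, edgeR). Adss, which leads from IMP towards AMP, was at 197, 194 and 204 CPM with C9, against 153, 153 and 158 CPM in I/R. Neither gene overlapped between the groups, and Adss rose by 0.36 on the log2 scale. Under the alternatives of the closing section, Gmps ranged from 0.44 to 0.67 and Adss from 0.25 to 0.43, and both stayed called. IMP dehydrogenase, which feeds Gmps, has a gene for each of its isoforms. Impdh2, the isoform that dividing cells use most, fell by 0.14 on the log2 scale, at 131, 140 and 127 CPM with C9, against 152, 144 and 142 CPM in I/R (adjusted p = 0.019, edgeR). That call was lost with total counts as the scale (-0.069, adjusted p = 0.23), after the GC and length correction (adjusted p = 0.054), and without I/R replicate 1 (0.076), C9 replicate 1 (0.059) or C9 replicate 3 (0.092). The pseudogene Impdh2-ps matches Impdh2 at 99.7% identity over its whole length and held 46.1 ± 3.62 CPM with C9 and 47.3 ± 3.89 CPM in I/R, so reads of this pair are uncertain. Impdh1 averaged 42.5 ± 3.38 CPM with C9 and 37.97 ± 1.72 CPM in I/R and, at 0.17 on the log2 scale, did not pass (adjusted p = 0.061, edgeR). It passed as higher after the GC and length correction (0.29, adjusted p = 0.0033), with total counts as the scale (0.24, adjusted p = 0.011), with upper quartile factors (adjusted p = 0.045), a robust prior (0.049) or a minimum of 50 counts (0.048), and without C9 replicate 1 (0.034).

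Prps1 and Prps2 encode the enzymes that make phosphoribosyl pyrophosphate, the substrate of Ppat. Prps1 was at 108, 107 and 100.6 CPM in I/R with C9, against 95.04, 100.2 and 97.5 CPM in I/R, and Prps2 at 51.07, 58.1 and 53.6 CPM, against 60.5, 63.2 and 55.8 CPM. Neither passed, at log2 fold changes of 0.11 and -0.14 (adjusted p = 0.057 and 0.087, edgeR). Prps1 passed as higher with total counts as the scale (0.18, adjusted p = 0.0042), with upper quartile factors (adjusted p = 0.034) or a minimum of 50 counts (0.040), and without C9 replicate 3 (0.036). Prps2 passed as lower after the GC and length correction (-0.23, adjusted p = 0.0061) and without C9 replicate 2 (0.036) or I/R replicate 3 (0.013), and was at -0.068 with total counts. Summed over the 12 genes of purine synthesis, the level was 1839 to 1875 CPM with C9 and 1647 to 1681 CPM in I/R. Of these genes 6 were higher and 2 lower, where 25.6% of all tested genes were higher and 26.1% lower. Their median log2 fold change was 0.18.

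All 5 genes of pyrimidine synthesis were called, 3 higher and 2 lower, with Cad on the lower side. The share called among all tested genes was 51.7%. Cad, which makes the first pyrimidine intermediates and is the regulated entry of the path, was at 179, 186 and 168 CPM in I/R with C9, against 224, 210 and 223 CPM in I/R. It fell by 0.30 on the log2 scale with no overlap (adjusted p = 3.8e-05, edgeR). Dhodh, the mitochondrial dihydroorotate dehydrogenase, which in human cancer cells has also been described as a defence against ferroptosis, was at 21.8, 20.6 and 18.7 CPM with C9, against 15.4, 15.5 and 13.1 CPM in I/R. It rose by 0.47 on the log2 scale (SE 0.10, adjusted p = 0.0013, edgeR) and lies on chr8:109591343-109608673 in GRCm38. Umps, which forms UMP, was at 74.5, 75.98 and 74.1 CPM with C9, against 57.6, 62.7 and 58.7 CPM in I/R, and rose by 0.33 on the log2 scale. The CTP synthases moved apart. Ctps was at 257, 246 and 238 CPM with C9, against 226, 222 and 217 CPM in I/R, and Ctps2 at 56.6, 54.2 and 58.2 CPM, against 67.5, 71.4 and 65.4 CPM. They differed in sign, at 0.15 for Ctps and -0.27 for Ctps2 on the log2 scale (adjusted p = 0.0034 and 6.7e-04, edgeR). The sum over the 5 genes, at 558 to 588 CPM with C9 and 577 to 591 CPM in I/R, overlapped between the groups.

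**Figure D3:**
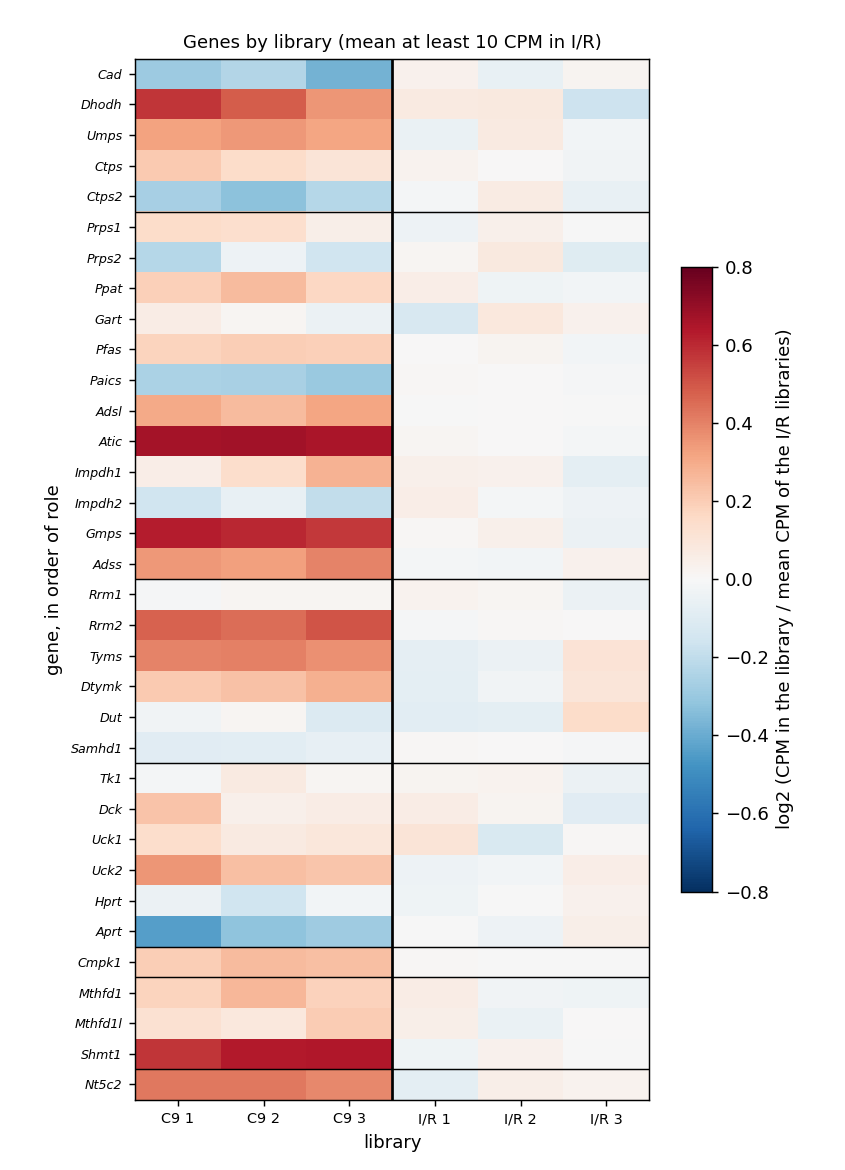
Log2 of the CPM in each library over the mean CPM of the I/R libraries, for the 34 tested genes with a mean of at least 10 CPM in I/R, in order of role (lines separate roles) with the I/R with C9 libraries left of the I/R libraries. Red is above and blue below the I/R mean. Atic, Gmps and Shmt1 are the most uniformly red and Cad, Paics and Aprt are blue in all 3 libraries with C9.

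Of the deoxynucleotide genes, Rrm2, Tyms and Dtymk rose and 3 did not pass the test. Rrm2, the small subunit whose amount limits the reductase in S phase, was at 312, 307 and 318 CPM in I/R with C9, against 224, 226 and 225 CPM in I/R. It rose by 0.48 on the log2 scale (SE 0.033, adjusted p = 2.5e-08, edgeR) and lies on chr12:24708241-24714146 in GRCm38. Rrm1, the large catalytic subunit, was at 538, 549 and 547 CPM with C9, against 553, 548 and 526 CPM in I/R, with overlapping groups (log2 fold change 0.0073 ± 0.031 SE, adjusted p = 0.87, edgeR). After the GC and length correction it was -0.12 and passed as lower (adjusted p = 0.0049), so its lack of a call depends on that setting. Tyms, which uses a folate unit to make thymidylate, was at 139, 140 and 136 CPM with C9, against 101, 102 and 114 CPM in I/R. Dtymk, which phosphorylates thymidylate, was at 89.7, 91.3 and 94.6 CPM, against 73.6, 76.2 and 83.02 CPM. Both rose without overlap, by 0.39 and 0.24 on the log2 scale, and in both I/R replicate 3 was the highest I/R library.

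Dut and Samhd1 encode enzymes that remove deoxynucleotides, and neither passed. Dut, which destroys dUTP, averaged 114 ± 4.97 CPM in I/R with C9 and 118 ± 11.1 CPM in I/R, where replicate 3 alone reached 131 CPM. Samhd1, which breaks down deoxynucleotide triphosphates, was at 203, 205 and 207 CPM with C9, against 218, 217 and 215 CPM in I/R (log2 fold change -0.080, adjusted p = 0.060, edgeR). Its groups did not overlap, and it passed as lower without I/R replicate 3 (0.046) and after the GC and length correction (-0.12, adjusted p = 0.0070), but was at -0.012 with total counts. Beside these values, the 29 genes listed for DNA replication gave 9 higher and 9 lower with a median log2 fold change of 0.0066. The 20 genes listed for G2 and mitosis gave 2 higher and 11 lower with a median of -0.15. Of all tested genes, 25.6% were higher and 26.1% lower. Among the replication genes, Pola1 of DNA polymerase alpha averaged 308 ± 15.7 CPM with C9 and 222 ± 6.84 CPM in I/R, and the helicase gene Mcm5 averaged 416 ± 5.16 and 328 ± 4.11 CPM (SD, n = 3 each). Rfc4 of the clamp loader rose by 0.34 on the log2 scale, and the histone mRNA binding gene Slbp fell by 0.26. The 4 mitotic genes of smallest p, Cdc20, Cenpf, Aurkb and Birc5, fell by 0.51, 0.42, 0.45 and 0.46.

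Among the 7 salvage genes 1 was higher and 1 lower, where 25.6% of all tested genes were higher and 26.1% lower. Aprt, which reuses adenine, was at 63.1, 68.5 and 70.3 CPM in I/R with C9, against 85.3, 83.1 and 88.4 CPM in I/R. It fell by 0.35 on the log2 scale with no overlap (adjusted p = 6.2e-05, edgeR), and by 0.20 after the GC and length correction (adjusted p = 0.0049). Uck2, the uridine-cytidine kinase abundant in proliferating cells, was at 188, 174 and 171 CPM with C9, against 143, 145 and 153 CPM in I/R, and rose by 0.27 on the log2 scale. The other 5 did not pass. Hprt, which reuses hypoxanthine and guanine, averaged 121 ± 5.94 CPM with C9 and 128 ± 3.26 CPM in I/R (SD, n = 3 each). The thymidine kinase gene Tk1 averaged 80.5 ± 2.45 and 79.2 ± 2.3 CPM, the deoxycytidine kinase gene Dck 134 ± 9.79 and 124 ± 6.7 CPM, and Uck1 64.6 ± 1.6 and 60.2 ± 4.78 CPM. Uck1, at a log2 fold change of 0.10, passed as higher after the GC and length correction (0.19, adjusted p = 0.017) and with total counts as the scale (0.17, adjusted p = 0.028). Dck, at 0.11, passed with total counts (0.18, adjusted p = 0.012) and was at 0.024 after the GC and length correction. Upp1, a uridine phosphorylase, was scarce at 1.59 ± 0.226 CPM with C9 and 1.179 ± 0.215 CPM in I/R.

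All 3 folate genes were called higher, where 25.6% of all tested genes were higher and 26.1% lower. Shmt1, which takes a one-carbon unit from serine in the cytosol, was at 88.4, 92.6 and 92.96 CPM in I/R with C9, against 58.2, 60.9 and 59.5 CPM in I/R (log2 fold change 0.62 ± 0.048 SE, adjusted p = 6.7e-08, edgeR). Mthfd1, the trifunctional cytosolic enzyme that makes the formyl-folate used by Gart and Atic, was at 137, 145 and 137 CPM with C9, against 126, 119 and 118 CPM in I/R. Its mitochondrial relative Mthfd1l was at 190, 185 and 202 CPM, against 181, 168 and 175 CPM. They rose by 0.21 and 0.14 on the log2 scale with no overlap, though the Mthfd1l call (adjusted p = 0.012, edgeR) was lost without I/R replicate 2 (0.066) or C9 replicate 3 (0.091). In a wider list of folate and serine genes, 6 of 19 tested genes were higher and 3 lower with a median of 0.055. The mitochondrial folate carrier gene Slc25a32 averaged 109.7 ± 1.90 CPM with C9 and 62.8 ± 2.19 CPM in I/R. Aldh1l2, which oxidises formyl-folate in mitochondria, averaged 796 ± 15.1 CPM with C9 and 1224 ± 35.2 CPM in I/R, and the methionine synthase gene Mtr 85.6 ± 3.59 and 66.98 ± 1.399 CPM. The log2 fold changes were 0.81, -0.62 and 0.36 for Slc25a32, Aldh1l2 and Mtr.

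Among the kinases, Cmpk1, which phosphorylates UMP and CMP, was at 101, 104.8 and 104.08 CPM in I/R with C9, against 88.4, 87.8 and 87.7 CPM in I/R. It rose by 0.23 on the log2 scale (adjusted p = 3.2e-04, edgeR), or by 0.12 after the GC and length correction (adjusted p = 0.023). Nme1 and Nme2 encode nucleoside diphosphate kinases that make triphosphates. Nme1 was at 12.5, 14.8 and 14.2 CPM with C9, against 6.42, 7.80 and 12.7 CPM in I/R, and I/R replicate 3 overlapped the treated libraries. It passed as higher (log2 fold change 0.60 ± 0.19 SE, adjusted p = 0.015, edgeR), with 0.96 without I/R replicate 3. The call was lost with a robust prior (adjusted p = 0.073) and without C9 replicate 2 (0.070), C9 replicate 3 (0.063), I/R replicate 1 (0.061) or I/R replicate 2 (0.065). Nme2 had 3, 6 and 3 counts with C9, against 9, 0 and 4 counts in I/R. The annotated gene Gm20390 runs through both on the same strand and shares 573 of the 1171 exon bases of Nme2 and 418 of the 3342 of Nme1, and Nme2 also has processed copies at over 97% identity. Reads in shared bases cannot be assigned to one gene, so the levels of Nme1 and Nme2 are uncertain.

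Both nucleotidases were called higher, as were 25.6% of all tested genes. Nt5c2, a cytosolic enzyme that dephosphorylates IMP and GMP, was at 73.6, 73.4 and 71.6 CPM in I/R with C9, against 52.1, 56.6 and 56.01 CPM in I/R (log2 fold change 0.41 ± 0.052 SE, adjusted p = 1.2e-05, edgeR). Nt5e, which makes adenosine from AMP outside the cell, had only 26, 39 and 23 counts with C9, against 12, 10 and 27 counts in I/R, and the groups overlapped in CPM. It passed as higher (log2 fold change 0.98 ± 0.35 SE, adjusted p = 0.028, edgeR), but not without C9 replicate 1 (0.069), C9 replicate 2 (0.15), I/R replicate 1 (0.083) or I/R replicate 2 (0.11). The fold of Nt5e therefore rests on few reads.

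Ratios of related genes within a library, which do not depend on the scaling, separated the groups for 5 of the 6 pairs with a value. Single genes were so separated for 58.5% of all tested genes, and no such share was computed for ratios of other gene pairs. The log2 ratio of Rrm2 to Rrm1 was -0.79, -0.84 and -0.78 in I/R with C9, against -1.31, -1.28 and -1.23 in I/R, which corresponds to 0.573 and 0.414 Rrm2 counts per Rrm1 count at the group means. The log2 ratio of Ctps to Ctps2 was 2.18, 2.18 and 2.03 with C9, against 1.75, 1.64 and 1.73 in I/R. The ratio of Impdh1 to Impdh2 averaged -1.64 ± 0.15 with C9 and -1.94 ± 0.047 in I/R on the log2 scale, and that of Prps1 to Prps2 averaged 0.96 ± 0.11 and 0.71 ± 0.084 (SD, n = 3 each). The ratio of Uck1 to Uck2 went the other way, at -1.46 ± 0.042 with C9 and -1.29 ± 0.13 in I/R. Each of these 5 had p = 0.1 by the exact two-sided permutation test, the smallest that 3 against 3 libraries allow, or 0.12 adjusted over the 6 pairs, so none could pass 0.05. The folate pair Mthfd1l to Mthfd1 overlapped, at 0.46 ± 0.10 and 0.53 ± 0.033 (exact permutation p = 0.4). No ratio was formed for Nme1 to Nme2 because of the library without Nme2 counts.

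**Figure D4:**
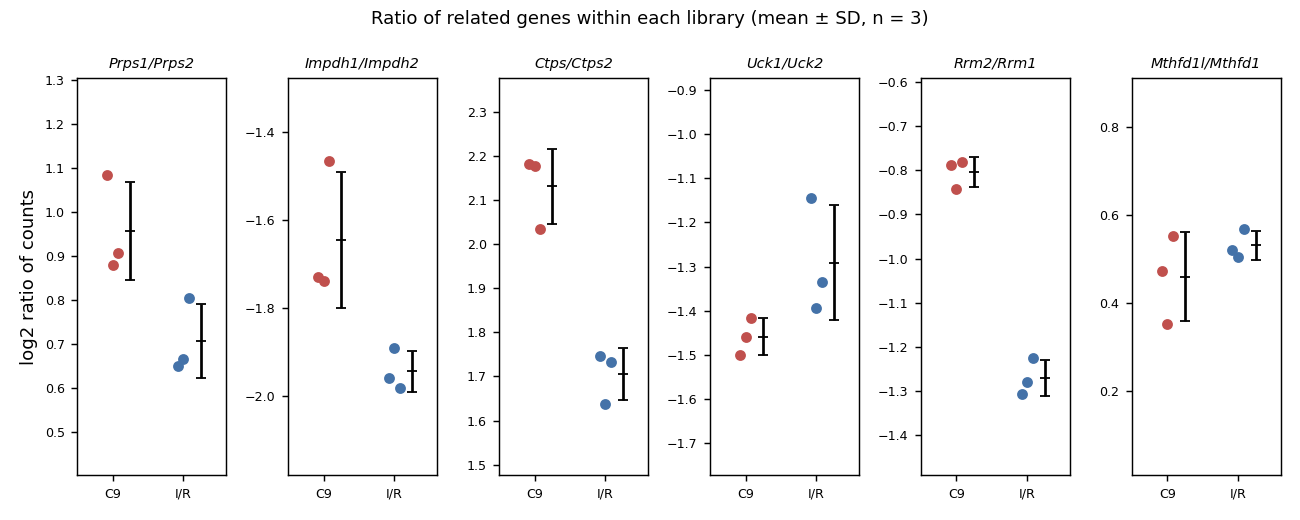
Log2 ratio of the counts of related genes in each library, with I/R with C9 in red left of I/R in blue and black bars for mean ± SD (n = 3). All panels span the same range, so distances can be compared. Points of the groups are separate in every panel except the folate pair Mthfd1l and Mthfd1.

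Of the other purine genes listed, 8 of 22 tested were higher and 9 lower (median 0.049). Of the other pyrimidine genes 2 of 13 were higher and 3 lower (median 0.042), against 25.6% higher and 26.1% lower of all tested genes. The largest difference in the purine list by p was in Xdh, which oxidises hypoxanthine and xanthine to uric acid. Xdh averaged 51.9 ± 2.85 CPM in I/R with C9 and 139.9 ± 3.598 CPM in I/R (log2 fold change -1.43 ± 0.05 SE, adjusted p = 1.3e-11, edgeR). Ak3, a mitochondrial adenylate kinase family member, averaged 66.08 ± 3.13 and 41.5 ± 1.08 CPM, and Prpsap2, a partner protein of the Prps enzymes, 40.5 ± 3.30 and 27.7 ± 1.13 CPM. Nudt2, a nucleotide hydrolase, averaged 13.9 ± 0.501 and 21.9 ± 1.13 CPM. In the pyrimidine list, Rrm2b, the p53-inducible small subunit of the reductase, averaged 123 ± 2.29 CPM with C9 and 149 ± 10.5 CPM in I/R, opposite in direction to Rrm2. Dguok, the mitochondrial deoxyguanosine kinase, averaged 17.8 ± 0.664 and 26.8 ± 1.02 CPM. Cmpk2, a mitochondrial nucleotide kinase known as interferon-induced, was scarce at 0.182 ± 0.097 and 1.75 ± 0.677 CPM, and the kinase gene Nme6 averaged 18.99 ± 0.388 and 14.6 ± 0.343 CPM.

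Genes of factors known to act on this set in dividing cells were listed too, and of 23 tested 5 were higher and 12 lower. The list pools activators with factors that oppose them, so these numbers give no direction for activators alone. Over all tested genes the shares were 25.6% higher and 26.1% lower. Myc itself averaged 63.5 ± 2.49 CPM in I/R with C9 and 63.3 ± 4.497 CPM in I/R and did not pass (adjusted p = 0.996, edgeR). Mxd4, a MAX partner that opposes MYC, averaged 27.98 ± 2.00 and 55.04 ± 2.48 CPM, and E2f3 averaged 44.9 ± 4.10 and 25.3 ± 0.943 CPM. Rbl1, a pocket protein related to the retinoblastoma protein, averaged 329 ± 4.12 and 219 ± 11.5 CPM. Atf4, a factor of the amino acid response that acts on mitochondrial folate genes, averaged 688 ± 9.68 and 856 ± 23.8 CPM. Protein levels and enzyme activity were not measured here.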

How the data were processed

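RNA-seq libraries were made with a stranded mRNA kit per the labels' protocols. HISAT2, HTSeq, DESeq 1.18.1 and the build mm10 are named in the submitters' processing notes. The deposited table holds the authors' raw counts per gene symbol. It also holds a p-value, an FDR, a ratio and a log2 value per gene from the authors' own comparison, used only where "the authors' deposited table" is named. Of 25216 rows, 27 repeats were removed. Coordinates are GRCm38, and 97.5% of genes matched to GENCODE M21 had the same start.

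Counts were fitted with edgeR 4.0.16 in R 4.3.3 over all 6 libraries (TMM factors, filterByExpr, group as the only term, common biological coefficient of variation 5.18%), with Benjamini-Hochberg adjustment over 14184 genes. A tested gene at the median level had at least 295 counts in a library. The procedure was tested on counts simulated from the observed means and fitted dispersions, with few genes changed. Such counts cannot check scaling or error control where as many genes differ as were called here. DESeq2 1.42.0, limma-voom (limma 3.58.1) and other alternatives are described in the closing section. The GC and length trend was a local regression of log2 fold change on both, for 95.3% of tested genes. It was fitted to the compared fold changes themselves, so it cannot separate bias from real differences that follow GC or length. Copies were searched with BLAST 2.17.0 at 95% identity over 50% of the shorter transcript, and 8 of the 38 genes have one that matches over at least 200 bases. The replicate number as a block is an alternative, and samples of the same number are not known to be paired. All 38 genes are named, with up to 4 genes of smallest p from each wider list and genes a result turns on. One gene of the folate list that this rule takes is not reported here. The genes, lists and roles were chosen with earlier results of these data known.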

Additional observations from a re-analysis of the deposited data

How the results depend on the processing

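Under 20 alternatives (size factors, tool, filter, threshold, replicate block, gene exclusion, GC and length trend, and each library left out), 669 of 738 values of the 37 tested genes kept their direction and their side of the threshold. The other thresholds and the 1.2-fold test kept the fold changes of the main fit, so direction could not change there. Calls of 20 genes, 16 higher and 4 lower, held under every alternative other than the 1.2-fold test. That test lowered the counts to 8 higher and 0 lower, and to 3329 of all genes, against 7336. Leaving out 1 library gave 17 to 20 higher and 4 to 7 lower. With the replicate number as a block 20 genes were higher and 5 lower, the same genes as without it, and 7300 of all genes were called. The deviations of same-numbered libraries correlated at 0.10, -0.052 and 0.042, so no effect shared by same-numbered libraries was seen. These values cannot show whether the samples were paired. Directions reversed for 4 genes not called at the settings reported. With total counts as the scale Dut was at 0.024. Without 1 library Dut ranged from -0.089 to 0.036, Gart from -0.054 to 0.047, Rrm1 from -0.016 to 0.018 and Tk1 from -0.00098 to 0.041. With the GC and length trend removed Rrm1 was at -0.12 and passed as lower (adjusted p = 0.0049), and the cause was not tested. Total counts as the scale moved the median of all genes to 0.065. Depth limits Nme2, Nt5e and Upp1, which had under 40 counts in every library.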

Other observations

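Genes that break down nucleotides or move nucleosides were listed beside the 38. Like the other lists, this one was chosen with earlier results of these data known, so its numbers are not independent support. Of its 16 nucleotidase and nucleoside transport genes, 11 had a row and 9 were tested. Of the 9 tested, 6 were higher and none lower by edgeR at an adjusted p under 0.05. Their median log2 fold change was 0.30, and of all tested genes 25.6% were higher and 26.1% lower. At an unadjusted p under 0.05 the numbers were 6 higher and 0 lower. DESeq2 gave 4 and 0, limma-voom 6 and 0, and the 1.2-fold test 1 and 0. Leaving out 1 library gave 3 to 5 higher, with the lowest number without C9 replicate 3. Nt5c3, a cytosolic pyrimidine nucleotidase, averaged 38.2 ± 0.875 CPM in I/R with C9 and 29.6 ± 0.312 CPM in I/R, and its relative Nt5c3b 61.5 ± 1.29 and 50.06 ± 1.07 CPM (SD, n = 3 each). The mitochondrial nucleotidase gene Nt5m averaged 18.2 ± 1.54 CPM with C9 and 13.3 ± 0.582 CPM in I/R, and the cytosolic nucleotidase gene Nt5c 27.5 ± 0.82 and 22.2 ± 2.91 CPM.

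In the authors' deposited table, 19 of the 38 genes were higher and 5 lower at an FDR under 0.05, and all 24 were called in the same direction here. The gene called here alone was Nt5e, at an FDR of 0.078 in the authors' deposited table.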
